A study of Drosophila melanogaster with 16 samples.

Results

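Glutamate receptor genes were followed in the clock neurons of the fly brain. The set held 8 genes chosen by name, of 17299 in the single-cell table: the metabotropic receptor mGluR, mangetout (mtt), the chloride channel subunit GluClalpha, the NMDA receptor subunits Nmdar1 and Nmdar2, the kainate-type subunit KaiR1D and the AMPA-type subunits GluRIA and GluRIB. All 8 were measured in every library, by droplet single-cell RNA sequencing in 10 libraries collected at 6 times of day and by bulk RNA sequencing of sparser driver lines in 6 libraries. The study sought to describe gene expression and its daily rhythm across all Drosophila clock neurons, with emphasis on the DN3 neurons of the dorsal brain.

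The single-cell flies carried Clk856-GAL4 with the split-GAL4 pair R11B03-AD and VT002670-DBD, both driving UAS-EGFP, and were kept in a light-dark cycle before EGFP-positive cells were sorted from dissociated brains of both sexes. Such a sort collects whatever the drivers label, so cells without clock gene transcripts were also present. The dissection saline held tetrodotoxin and blockers of ionotropic glutamate receptors, in every library alike. Bulk RNA came from EGFP-positive neurons of the R11B03-AD drivers with R77H08-DBD or VT055068-DBD and of SS00367, each with replicates A and B at ZT02 (zeitgeber time, hours after lights on). Each library pooled brains, so libraries and not cells were the replicates. Where cell sets of the same libraries were compared, p-values measure how the differences within a library vary over libraries. Elsewhere they measure the spread between libraries.

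In flies, mtt is annotated as a relative of the metabotropic glutamate receptors, and mGluR is a receptor of that class which signals through G proteins rather than by opening a channel. GluClalpha forms a glutamate-gated chloride channel, through which glutamate can inhibit a neuron, whereas NMDA, kainate and AMPA-type subunits form cation channels. Glutamate is a transmitter of many dorsal clock neurons of the fly, and glutamate receptors of the clock network have been studied for their part in light responses and sleep.

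Clock cells were those with 4 or more UMIs (unique molecular identifiers, counted molecules) of Clk, per, tim and cwo together, and comparison cells were those without a UMI of Clk or tim. Of 23905 cells kept, 10904 (45.6%) were clock cells and 9837 comparison cells, with medians of 6538.5 and 3660 UMIs per cell. A total of 658 cells met both definitions and were counted as clock cells only, and 3164 met neither. The share of clock cells ran from 25.9% in a ZT02 library, with 3792 comparison cells, to 68.3% in a ZT14 library, with 674. In clock cells tim ranged from 3.28 to 18.2 TP10K (UMIs per 10000 UMIs) over the libraries. Clock neurons low in tim may thus have been counted as comparison cells at some times of day. The part of these changing sets in the rhythms below was not tested. Clock cells were then grouped by 1 marker each, giving 316 Pdf, 702 AstA, 267 CCHa1, 308 CNMa, 616 CG34351, 744 Pvf3 and 290 CrzR with ct cells, while 7435 clock cells had none of these markers. Library totals lay between 3518519 and 32385361 UMIs, and 55 cell barcodes occurred in more than 1 library.

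Each group was set beside 5 other genes from the study's list of cluster genes. All 5 were at least 2-fold above the mean of the other groups, except in CG34351 cells, where 4 of 5 were and the lowest reached 1.60-fold. That list was drawn from the same data, so it gives no independent check of the groups. Neuron genes (elav, nSyb, Syt1 and brp) were present throughout. The summed level of 6 glial genes had a median of 1.27 UMIs per 10000 UMIs (TP10K) in clock cells and 1.23 TP10K in comparison cells, and medians between 0.179 and 0.440 TP10K in the marker groups. The summed level of 4 photoreceptor genes reached 12.2 TP10K in the CG34351 cells of 1 ZT02 library and 14.5 TP10K in 1 library of comparison cells, and in CG34351 cells was at most 0.121 TP10K in the other libraries. What part these cells or free RNA have in the values below was not tested.

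The genes lie on 5 chromosome arms of the dm6 assembly. mGluR is on chromosome 4 at 936819 to 949441, mtt on 2R at 8473956 to 8532294, and GluClalpha on 3R at 19730715 to 19775231. Nmdar1 is at 5508842 to 5523328 and KaiR1D at 20860187 to 20866231 on 3R, and Nmdar2 at 1483625 to 1507809 on X. GluRIA is on 3L at 6624032 to 6635059 and GluRIB on 3L at 9251978 to 9288522. The counted reads were from annotated exons, and an exon of mtt overlaps an exon of Mal-A8 on the opposite strand. Mal-A8 had 0 UMIs in Pdf, CCHa1 and CNMa cells and 1 UMI in CG34351 cells.

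Clock cells were first compared with comparison cells of the same libraries. GluRIA and KaiR1D rose in clock cells, by less than 2-fold, and GluClalpha did not pass the test. In edgeR's quasi-likelihood test with library as a block, a gene was called at a Benjamini-Hochberg adjusted p under 0.05 with at least a 1.5-fold difference. By this rule 2 of the 8 genes were called, and 14% of all 9957 genes tested. The 8 genes had a median log2 difference of 0.37, against 0.02 over all genes.

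The AMPA-type subunit GluRIA had 1.72, 1.91 and 2.86 TP10K (lowest, median and highest of 10 libraries) in clock cells, against 0.963, 1.25 and 2.24 TP10K in comparison cells. The 2 ranges overlapped, but GluRIA was higher in the clock cells of all 10 libraries, and the difference of 0.68 (log2, SE 0.09) passed the test (edgeR adjusted p = 8.1e-05). The kainate-type subunit KaiR1D averaged 0.344 ± 0.048 TP10K in clock cells and 0.234 ± 0.058 TP10K in comparison cells (SD, n = 10 libraries), a difference of 0.60 (SE 0.09, edgeR adjusted p = 0.00018). KaiR1D was higher in the clock cells of 9 of 10 libraries. The call of KaiR1D lay close to the 1.5-fold limit. The difference was 0.53 among cells of at most 15000 UMIs and 0.49 among cells of 3000 to 10000 UMIs, both under 1.5-fold. It also fell short without the ZT06 library of 23 June, the ZT14 library of 7 March or the ZT22 library of 5 August. The lowest of these 3 was 0.54. Its edgeR adjusted p stayed under 0.05 in all of these settings. GluRIA was at 0.46 and not called in the libraries of ZT10, ZT14 and ZT18 alone.

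Another 3 genes had small adjusted p-values at less than 1.5-fold. GluRIB, the partner of GluRIA, averaged 3.10 ± 0.377 TP10K in clock cells and 2.13 ± 0.415 TP10K in comparison cells, with a log2 difference of 0.58 (edgeR adjusted p = 0.00015). GluRIB was called when cells were held to at most 15000 UMIs (0.66), to 3000 to 10000 UMIs (0.67) or to 8 or more clock gene UMIs (0.81). mGluR averaged 1.79 ± 0.249 TP10K in clock cells and 1.31 ± 0.364 TP10K in comparison cells, a difference of 0.51 (edgeR adjusted p = 0.0031). Nmdar2 was the exception in direction, with 1.43 ± 0.224 TP10K in clock cells and 1.76 ± 0.210 TP10K in comparison cells, and was lower in the clock cells of all 10 libraries (-0.28, edgeR adjusted p = 0.0014).

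The remaining 3 genes did not pass. mtt averaged 0.830 ± 0.198 TP10K in clock cells and 0.709 ± 0.136 TP10K in comparison cells (0.24, edgeR adjusted p = 0.059), and reached 0.80 and was called among cells of 3000 to 10000 UMIs. Nmdar1 differed by 0.16 (edgeR adjusted p = 0.14) and GluClalpha by 0.01 (edgeR adjusted p = 0.94). Among comparison cells sorted by transmitter genes, mtt averaged 1.70 ± 0.573 TP10K in 832 glutamatergic cells, 0.759 ± 0.141 TP10K in 2087 cholinergic cells and 0.333 ± 0.195 TP10K in 617 GABAergic cells (SD, n = 10 libraries each). In the same order of classes, GluRIA averaged 2.57 ± 0.721, 1.49 ± 0.347 and 2.13 ± 1.12 TP10K. GluRIB averaged 3.99 ± 0.842, 2.46 ± 0.373 and 3.38 ± 1.38 TP10K. Clock cells, at 2.10 TP10K of GluRIA and 3.10 TP10K of GluRIB, were thus below the mean of the glutamatergic class for both. The difference of clock cells from each class was not tested.

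For GluRIA, GluRIB, mGluR and Nmdar1 the marker groups lay much further apart than clock and comparison cells did. The extremes of 7 groups are a wider measure than a contrast of 2 sets. The ratio of the highest to the lowest group mean was 37.6 for GluRIA, 30.05 for GluRIB, 20.3 for mGluR and 14.1 for Nmdar1. It was only 3.09 for GluClalpha, 2.55 for Nmdar2 and 1.58 for KaiR1D. For mtt it was 21.0, of CG34351 over AstA cells, which only describes a level known when the genes were chosen. Each group was set against the mean of the other 6 groups in 1 edgeR model with library as a block. Leaving aside mtt in CG34351 cells, whose high level was known when the genes were chosen, 55 pairs of a gene and a group gave 28 calls. Groups entered with 7 to 10 libraries each, since a library needed 5 or more cells of the group.

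**Figure D1:**
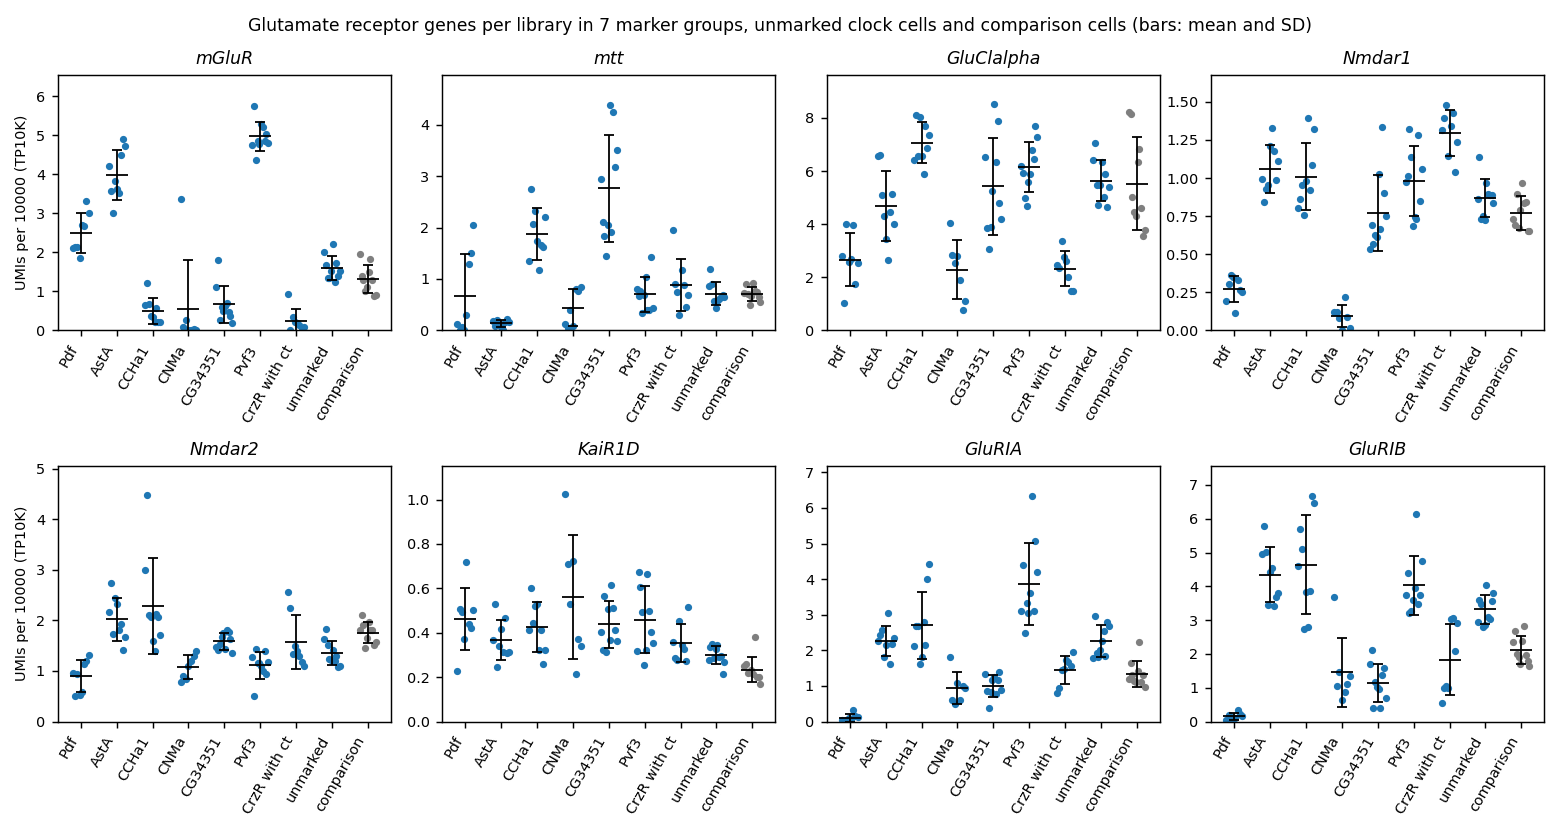
Level of each of the 8 genes (UMIs per 10000, TP10K) in the cells of 7 marker groups, in unmarked clock cells and in comparison cells. Each point is a library and bars give mean and SD. GluRIA and GluRIB sat near 0 in all 8 libraries of Pdf cells, mGluR was above 2.9 TP10K in every library of AstA and Pvf3 cells, and mtt spread from 0 to 2.05 TP10K among the libraries of Pdf cells.

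The share of genes called differed by group, so each count was read against its own background. In Pdf cells, the ventral lateral neurons that release the clock peptide PDF, 4 of 8 genes were called (1 higher and 3 lower) and 29% of all 7890 genes. In AstA cells it was 5 of 8 (4 higher, 1 lower) and 13.3% of all genes, in CCHa1 cells 7 of 8 (6 higher, 1 lower) and 14.2%, and in CNMa cells 3 of 8 (all lower) and 18.6%. In CG34351 cells it was 2 of the 7 genes other than mtt (both lower) and 19.4%, in Pvf3 cells 4 of 8 (3 higher, 1 lower) and 18.4%, and in CrzR with ct cells 3 of 8 (1 higher, 2 lower) and 12.3%. The median log2 difference of the 8 genes was highest in CCHa1 cells (0.98, against -0.03 over all genes) and lowest in CNMa cells (-0.67, against -0.02).

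mGluR split the groups into high, middle and low levels. It averaged 4.96 ± 0.376 TP10K in Pvf3 cells and 3.98 ± 0.634 TP10K in AstA cells, which did not differ beyond their SDs, and 2.49 ± 0.505 TP10K in Pdf cells, with each of these groups called higher than the others. The log2 differences were 2.39 (SE 0.24, edgeR adjusted p = 1.9e-12) in Pvf3 cells, 2.46 (SE 0.23, edgeR adjusted p = 9.6e-13) in AstA cells and 1.84 (SE 0.27, edgeR adjusted p = 6.0e-08) in Pdf cells. The other 4 groups lay below 0.7 TP10K and did not differ from each other beyond their SDs.

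In those 4 groups mGluR fell by 2.38 on the log2 scale in CrzR with ct cells, by 1.96 in CNMa cells, by 1.26 in CCHa1 cells and by 1.09 in CG34351 cells relative to the other groups (edgeR adjusted p between 4.4e-06 and 0.0078). The CNMa cells of the ZT02 library of 7 March stood apart, with 3.37 TP10K from 56 UMIs in 12 cells, where the other 6 libraries had at most 0.270 TP10K and 3 of them 0 UMIs. The 5 CNMa marker genes summed to 185 TP10K in those 12 cells, against 75.9 to 179 TP10K in the other libraries, and Dh31 alone averaged 89.4 TP10K in CNMa cells. Whether the 12 cells were all of the same type was not tested. Without that library the CNMa mean was 0.0618 TP10K rather than 0.535 TP10K, and the log2 difference was -3.31. The call in CCHa1 cells was lost among cells of at most 15000 UMIs (-0.88), and that in CG34351 cells among cells of 8 or more clock gene UMIs (-0.65).

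mtt had another order. It averaged 2.76 ± 1.05 TP10K in CG34351 cells (lowest 1.45, median 2.53, highest 4.38 TP10K over 10 libraries) and 1.88 ± 0.502 TP10K in CCHa1 cells (1.18, 1.74 and 2.76 TP10K over 9 libraries). These groups did not differ beyond their SDs. Its high level in a group of DN3 neurons marked by CG34351 was thus given as a description, with no call counted. In CCHa1 cells, the anterior dorsal neurons that express the peptide CCHamide-1, mtt was higher than in the other groups by 1.75 (log2, SE 0.28, edgeR adjusted p = 1.4e-06).

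AstA cells had the least mtt, with 0, 0.162 and 0.210 TP10K (lowest, median and highest of 9 libraries), a log2 difference of -2.72 (SE 0.38, edgeR adjusted p = 6.3e-08). The mean of the other groups included CG34351 cells, whose high mtt was known beforehand. CrzR with ct, Pvf3, Pdf and CNMa cells lay between, at 0.886 ± 0.508, 0.697 ± 0.342, 0.668 ± 0.815 and 0.436 ± 0.363 TP10K, and neighbours in this order did not differ beyond their SDs. An mtt UMI was found in 50.3% of CG34351 cells and 64.4% of CCHa1 cells, against 12.1% of AstA cells, at medians of 5526.5, 11512 and 11600 UMIs per cell. When each cell was thinned to 2000 UMIs, the shares were 36.2% of CG34351 cells (95% Wilson interval 32.4% to 40.1%), 26.2% of CCHa1 cells (21.2% to 31.9%) and 2.30% of AstA cells (1.42% to 3.71%). Intervals here and below cover counting error only.

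Over the 61 sums of a group in a library, which share libraries and depth, mGluR and mtt had a Pearson r of -0.409 on the log2 scale. These sums included those of CG34351 cells, whose high mtt was known beforehand. Both were detected in 26.9% of Pdf cells, at whatever time. The genes most like mGluR over these sums were cpo (r = 0.783) and Myo31DF (r = 0.737), and those most like mtt were trio (r = 0.674) and GILT1 (r = 0.663), among 2307 genes compared.

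The chloride channel gene GluClalpha had a narrow range. It averaged 7.06 ± 0.776 TP10K in CCHa1 cells, 6.15 ± 0.954 TP10K in Pvf3 cells, 5.43 ± 1.83 TP10K in CG34351 cells and 4.69 ± 1.32 TP10K in AstA cells, then 2.66 ± 1.002 TP10K in Pdf cells, 2.32 ± 0.648 TP10K in CrzR with ct cells and 2.28 ± 1.12 TP10K in CNMa cells. Neighbours in this order did not differ beyond their SDs. It was called higher in CCHa1 cells (1.04, edgeR adjusted p = 1.3e-08) and lower in CNMa cells (-0.94, edgeR adjusted p = 4.8e-05) and CrzR with ct cells (-0.81, edgeR adjusted p = 0.00015). The genes most like it were btsz (r = 0.826) and CG9368 (r = 0.795).

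The 2 NMDA subunits, which work together in 1 channel, did not follow the same order. Nmdar1, the obligate subunit, averaged 1.30 ± 0.150 TP10K in CrzR with ct cells and between 0.772 and 1.06 TP10K in AstA, CCHa1, Pvf3 and CG34351 cells. It stood at 0.271 ± 0.0842 TP10K in Pdf cells and 0.0917 ± 0.0723 TP10K in CNMa cells, each apart from its neighbours by more than the SDs. The 7 libraries of CNMa cells ranged from 0 to 0.215 TP10K and the 8 libraries of Pdf cells from 0.114 to 0.361 TP10K, below every library of the other 5 groups, of which the lowest had 0.536 TP10K.

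The log2 difference of Nmdar1 was -2.92 (SE 0.22, edgeR adjusted p = 1.5e-16) in CNMa cells and -1.16 (SE 0.17, edgeR adjusted p = 5.5e-08) in Pdf cells. It was 1.43 (edgeR adjusted p = 4.7e-14) in CrzR with ct cells, 0.96 (edgeR adjusted p = 8.0e-10) in AstA cells and 0.91 (edgeR adjusted p = 1.4e-07) in CCHa1 cells. Nmdar2, the regulatory subunit, ranged only from 0.897 ± 0.319 TP10K in Pdf cells to 2.28 ± 0.941 TP10K in CCHa1 cells, and CNMa cells held 1.07 ± 0.236 TP10K. It was called higher in CCHa1 cells (0.77, edgeR adjusted p = 1.6e-06) and lower in Pvf3 cells (-0.68, edgeR adjusted p = 6.3e-05).

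Both NMDA subunits were detected in 57.6% of CrzR with ct cells, 54.0% of AstA cells and 50.2% of CCHa1 cells. The gene most like Nmdar1 was the dopamine receptor gene Dop2R (r = 0.840), followed by GlcAT-P (r = 0.804), whereas Nmdar2 was most like CG13375 (r = 0.689) and CG12730 (r = 0.676). KaiR1D averaged 0.354 to 0.560 TP10K in the 7 groups, with no neighbours apart and no call, and its most similar genes reached only r = 0.494 (Uba1) and r = 0.461 (Ref1).

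**Figure D2:**
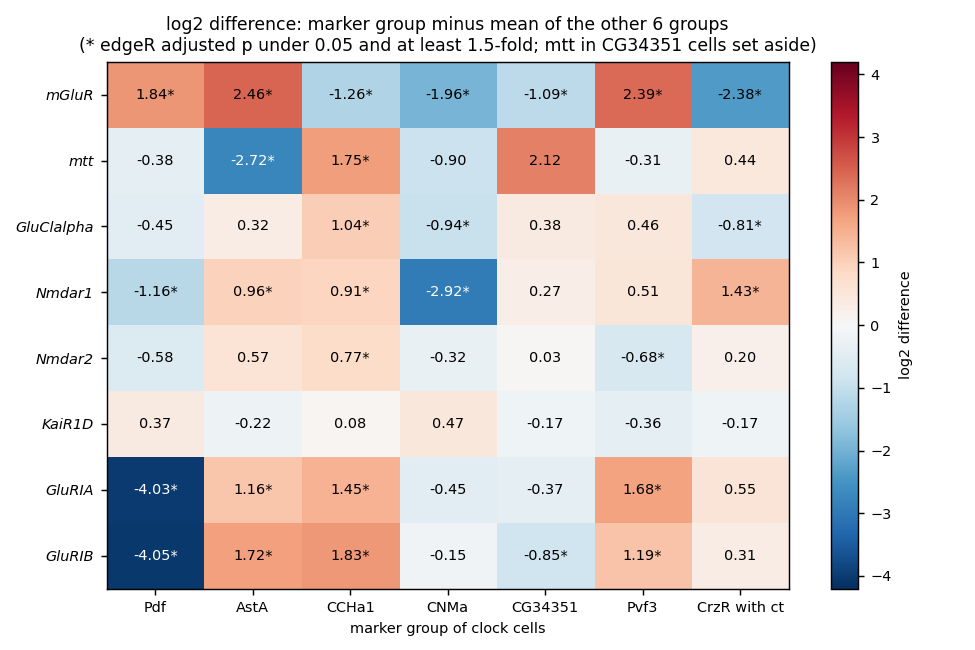
Log2 difference of each gene (rows) in each marker group (columns) from the mean of the other 6 groups, with an asterisk for the 28 calls and mtt in CG34351 cells set aside. GluRIA (-4.03) and GluRIB (-4.05) were lowest in Pdf cells, mGluR ranged from 2.46 in AstA cells to -2.38 in CrzR with ct cells, and no call was made for KaiR1D.

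The AMPA-type genes GluRIA and GluRIB went together and were nearly absent from Pdf cells. GluRIA had 0, 0.0681 and 0.330 TP10K (lowest, median and highest of 8 libraries) in Pdf cells, from 38 UMIs in all, and averaged 0.939 to 3.87 TP10K in the other groups. GluRIB had 0.0322, 0.136 and 0.330 TP10K in Pdf cells, from 55 UMIs. No library of another group was as low as the highest Pdf library for either gene, the lowest being 0.392 TP10K for each.

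The log2 differences in Pdf cells were -4.03 (SE 0.27, edgeR adjusted p = 4.5e-19) for GluRIA and -4.05 (SE 0.34, edgeR adjusted p = 3.4e-15) for GluRIB. Pdf cells were the deepest, with a median of 15534 UMIs, and still only 9.18% had a GluRIA UMI and 11.7% a GluRIB UMI, against 73.4% and 87.9% of AstA cells. After thinning to 2000 UMIs the shares were 2.56% for GluRIA and 1.60% for GluRIB in Pdf cells, against 35.3% and 50.2% in AstA cells.

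Pvf3, CCHa1 and AstA cells had the most of both. GluRIA averaged 3.87 ± 1.16, 2.70 ± 0.953 and 2.27 ± 0.419 TP10K in these 3 groups, with log2 differences of 1.68, 1.45 and 1.16 (edgeR adjusted p at most 1.7e-09). GluRIB averaged 4.03 ± 0.883, 4.64 ± 1.46 and 4.35 ± 0.816 TP10K, with log2 differences of 1.19, 1.83 and 1.72 (edgeR adjusted p at most 6.9e-07). CrzR with ct, CNMa and CG34351 cells lay between these and Pdf cells, at 0.939 to 1.84 TP10K for either gene, and GluRIB was called lower in CG34351 cells (-0.85, edgeR adjusted p = 0.0022), a call lost among cells of 8 or more clock gene UMIs (-0.52).

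Of the 2307 genes compared, GluRIB was the one most like GluRIA over the 61 sums (r = 0.913), and GluRIA the one most like GluRIB. The next were mub for GluRIA (r = 0.843) and the sodium channel gene NaCP60E for GluRIB (r = 0.774). Both subunits were detected in 74.9% of CCHa1 cells, 69.5% of AstA cells, 56.2% of CrzR with ct cells and 51.7% of Pvf3 cells. In CNMa cells it was 33.1%.

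Rhythms were tested next, as a 24 h cosine over the 6 time points in the sums of each group (edgeR, adjusted p under 0.05). The swing is the fitted log2 difference between peak and trough. In clock cells as a whole, 0 of 8 genes were called by edgeR and 0 by DESeq2, with 1 at an unadjusted p under 0.05 (mtt, swing 0.66), and 1.07% of all genes were called. In comparison cells 0 of 8 genes were called by either tool, with 0 at an unadjusted p under 0.05, and 0% of all genes were called by edgeR (497 of 9116 at an unadjusted p under 0.05, and 37 called by DESeq2). The difference in rhythm between clock and comparison cells was called for 0 of 8 genes by edgeR, with 4 at an unadjusted p under 0.05, and for 0.552% of all genes. DESeq2 called 1 of 8, mtt (swing of the difference 0.75, adjusted p = 0.026, against 0.17 by edgeR).

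Within the marker groups there were 7 calls. They were 2 of 8 in Pdf cells (10.9% of all genes), 1 of 8 in AstA cells (7.43%), 2 of 8 in CCHa1 cells (6.92%), 1 of 8 in CNMa cells (6.05%) and 1 of 8 in CrzR with ct cells (6.82%). In CG34351 cells 0 of 8 were called by edgeR or DESeq2, with 3 at an unadjusted p under 0.05, and 0.328% of all genes by edgeR. In Pvf3 cells 0 of 8 were called by either, with 1 at an unadjusted p under 0.05, and 0.523% of all genes by edgeR. Libraries of 1 collection date deviated together, and a fit with the date as a block gave 4 more calls, named with their genes below. That fit kept the 6 calls outside CNMa cells, where it could not be fitted.

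mtt had the largest swing of the 8 genes in Pdf cells, 6.62 (log2) with a peak at ZT19.9 (edgeR adjusted p = 3.5e-06). Its level was 0.129 TP10K at ZT02, 0 and 0.0657 TP10K at ZT06, 0.0124 TP10K at ZT10, 0.299 TP10K at ZT14, 1.28 TP10K at ZT18, and 1.51 and 2.05 TP10K at ZT22. All 3 libraries of ZT18 and ZT22 were thus above all 5 earlier ones. The library at 0 held 7 cells, in which 3 UMIs would have been 0.304 TP10K.

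By cells, an mtt UMI was found in 17.5% of 57 Pdf cells at ZT02, in 0 of 7 and 11.4% of 35 cells at ZT06, in 1.61% of 62 cells at ZT10 and in 23.8% of 80 cells at ZT14. The shares were 65.2% of 23 cells at ZT18 and 81.5% of 27 and 90.5% of 21 cells at ZT22. The pooled level of ZT18 and ZT22 was 1.61 TP10K from 168 UMIs, against 0.0331 TP10K from 5 UMIs at ZT06 and ZT10, a ratio of 48.8 (exact 95% interval 20.5 to 152, counting error only). The swing of Pdf cells differed from the mean of the other groups by 5.85 (edgeR adjusted p = 6.0e-07), in a comparison where 2 of 8 genes and 8.21% of all genes were called. This test of differences between groups was added after the rhythms had been seen.

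The Pdf cells did not keep the same level of their marker genes over the day. The 5 marker genes summed to 110 to 134 TP10K in the 4 libraries of ZT02 to ZT10 and to 20.4 to 35.9 TP10K in the 4 libraries of ZT14 to ZT22, and the part of this in the mtt rhythm was not tested. The mtt swing kept its call in every alternative, between 6.36 and 6.81 in other settings and between 5.94 and 7.27 when single libraries were left out.

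mtt also swung in CNMa cells, the posterior dorsal neurons that express the peptide CNMamide, by 5.06 with a peak at ZT19.4 (edgeR adjusted p = 0.0014). The level was 0.120 TP10K at ZT02, 0.0410 TP10K at ZT10, 0.387 and 0.0907 TP10K at ZT14, 0.800 TP10K at ZT18, and 0.773 and 0.843 TP10K at ZT22, with no library of ZT06. Again the 3 libraries of ZT18 and ZT22 were above all others. The ZT02 level came from 2 UMIs in the 12 cells high in mGluR, and that of ZT10 from 4 UMIs in 83 cells. Libraries of ZT14 to ZT22 held 7 to 95 CNMa cells. The part of these changing cells in the mtt rhythm was not tested. The pooled level of ZT18 and ZT22 was 0.813 TP10K from 105 UMIs, against 0.0410 TP10K from 4 UMIs at ZT10, a ratio of 19.8 (exact 95% interval 7.51 to 74.1, counting error only). The difference from the swing of the other groups was 3.70 (edgeR adjusted p = 0.051), in a comparison where 2 other genes of the 8 and 5.04% of all genes were called.

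**Figure D3:**
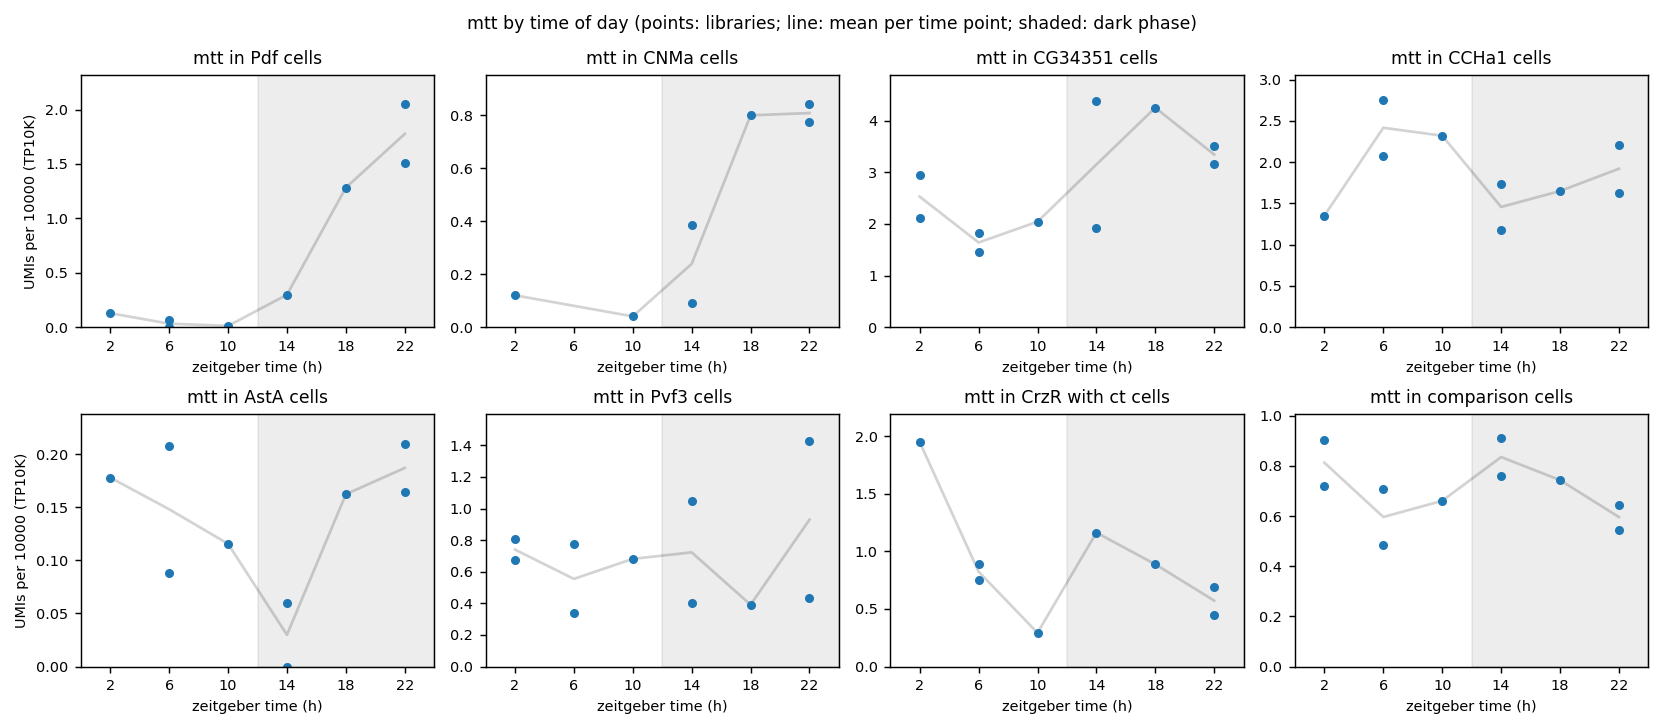
mtt (TP10K) by zeitgeber time in the cells of each marker group and in comparison cells, on separate scales. Points are libraries, the line joins the means of the time points and the dark phase is shaded. In Pdf and CNMa cells the libraries of ZT18 and ZT22 were above the rest, whereas CG34351 cells held at least 1.45 TP10K at every time.

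In CG34351 cells, where mtt was high at all times, the swing was 1.23 with a peak at ZT19.0 and missed the threshold (edgeR adjusted p = 0.32). It was called in 1 alternative, with no minimum of UMIs per gene (1.22, edgeR adjusted p = 0.0072). The level was 2.95 and 2.11 TP10K at ZT02, 1.83 and 1.45 TP10K at ZT06, 2.04 TP10K at ZT10, 4.38 and 1.92 TP10K at ZT14, 4.25 TP10K at ZT18, and 3.17 and 3.52 TP10K at ZT22. The pair at ZT14 came from different dates and differed from each other by more than 2-fold. In CCHa1 cells mtt was at 1.35 TP10K at ZT02, 2.76 and 2.08 TP10K at ZT06, 2.32 TP10K at ZT10, 1.74 and 1.18 TP10K at ZT14, 1.65 TP10K at ZT18, and 1.63 and 2.21 TP10K at ZT22. The swing of 0.42 missed the threshold (edgeR adjusted p = 0.76), yet the difference from the rhythm of the other groups was called (2.70, edgeR adjusted p = 0.00075). There 1 of 8 genes and 1.06% of all genes were called, and the mtt call was lost only with doubled marker minima among the alternatives run. The mean of the other groups held the swings of Pdf and CNMa cells.

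In AstA, Pvf3 and CrzR with ct cells the ratio of the pooled mtt level at ZT18 and ZT22 to that at ZT06 and ZT10 was 1.34, 1.25 and 1.06. These ratios leave out ZT02 and ZT14. Over all libraries mtt ran from 0.337 to 1.43 TP10K in Pvf3 cells and from 0.293 to 1.95 TP10K in CrzR with ct cells. In the latter an mtt UMI was found in 83.8% of 37 cells at ZT02 and 66.1% of 59 cells at ZT14. The share was 26.5% of 34 cells at ZT10 and 35.1% to 61.1% in the other libraries. No mtt rhythm was called in these 3 groups. The rhythm of CrzR with ct cells differed from the other groups for mtt (2.17, edgeR adjusted p = 0.046) and GluRIB, 2 of 8 genes against 2.43% of all genes, but the mtt call was lost in 11 of the alternatives run. In AstA, CG34351 and Pvf3 cells 0 of 8 genes were called for a difference in rhythm by edgeR, with 6, 3 and 3 at an unadjusted p under 0.05 and 1.24%, 1.05% and 0.862% of all genes called. DESeq2 was not run on this comparison.

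Of the channel genes, GluRIB had the largest called swing, in CrzR with ct cells, at 2.23 with a peak at ZT17.5 (edgeR adjusted p = 0.0007). Its level was 0.557 TP10K at ZT02, 1.001 and 1.06 TP10K at ZT06, 0.985 TP10K at ZT10, 3.04 TP10K at ZT14, 3.06 TP10K at ZT18, and 2.07 and 2.90 TP10K at ZT22. All 4 libraries of the dark phase were above all 4 of the light phase. A GluRIB UMI was found in 29.7% to 72.2% of the cells of a library at ZT02 to ZT10 and in 85.4% to 95.8% at ZT14 to ZT22.

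The difference of the GluRIB rhythm in CrzR with ct cells from the other groups was 2.34 (edgeR adjusted p = 0.0044). Both the swing and this difference kept their call in every alternative. GluRIA in the same cells had a swing of 0.85 (edgeR adjusted p = 0.25), with 0.796 TP10K at ZT02 and 1.56 and 1.96 TP10K at ZT22, and was called with collection date as a block (1.16, edgeR adjusted p = 0.027).

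In CCHa1 cells GluRIA and GluRIB both peaked near ZT24. The swing was 1.15 with a peak at ZT23.1 for GluRIA (edgeR adjusted p = 0.022) and 1.19 with a peak at ZT0.3 for GluRIB (edgeR adjusted p = 0.0066). GluRIA was at 4.01 and 4.42 TP10K at ZT22, above every other library, of which the lowest was 1.62 TP10K at ZT10. GluRIB was at 6.67 and 6.46 TP10K at ZT22 and 2.75 TP10K at ZT10. The GluRIA call was lost without the library of ZT10, without the ZT14 library of 7 March and without either library of ZT22 (edgeR adjusted p up to 0.19), and both were lost among cells of at most 15000 UMIs.

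**Figure D4:**
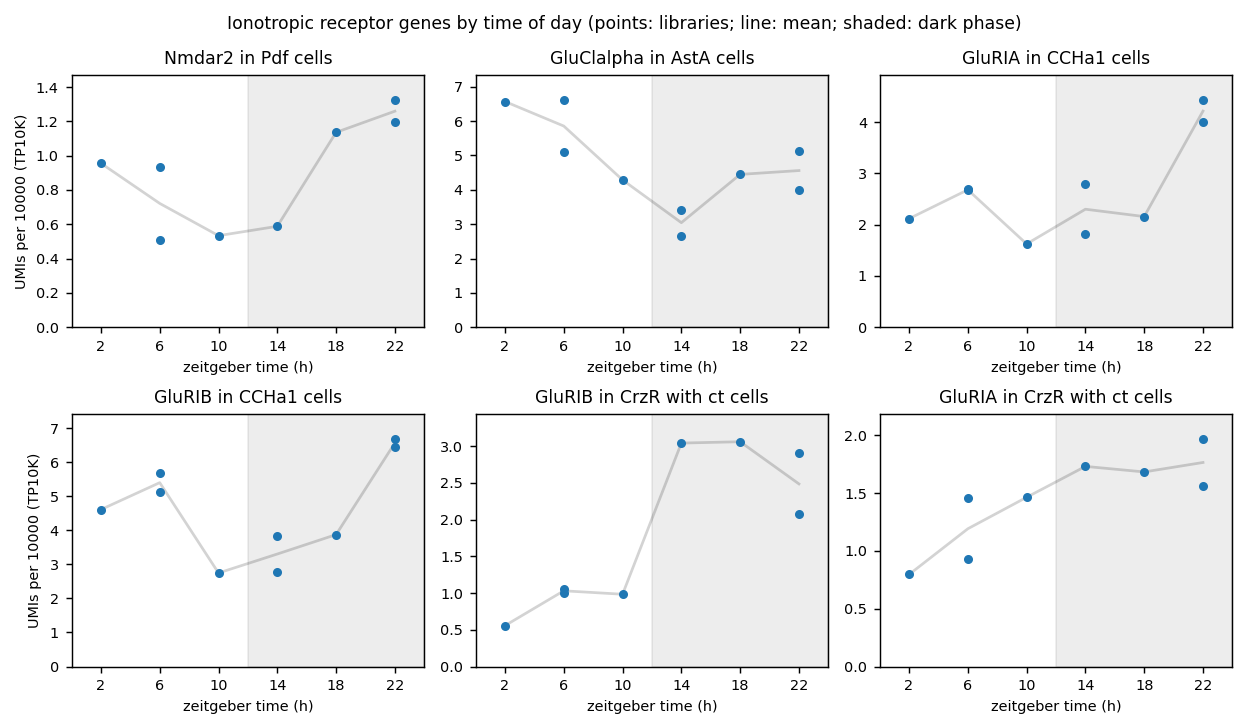
Channel subunit genes (TP10K) by zeitgeber time, for the 5 called rhythms of these genes and for GluRIA in CrzR with ct cells, which was called only with collection date as a block. Points are libraries, the line joins the means and the dark phase is shaded. GluRIB in CrzR with ct cells was 2.07 TP10K or more in the dark phase and 1.06 TP10K or less in the light phase.

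Nmdar2 in Pdf cells had a swing of 1.39 with a peak at ZT22.9 (edgeR adjusted p = 0.022). It was at 0.956 TP10K at ZT02, 0.507 and 0.936 TP10K at ZT06, 0.534 TP10K at ZT10, 0.588 TP10K at ZT14, 1.14 TP10K at ZT18, and 1.20 and 1.32 TP10K at ZT22. The 3 libraries of ZT18 and ZT22 were the highest, by a small margin over ZT02. Its difference from the other groups was 1.26 (edgeR adjusted p = 0.011), and both calls were lost without the library of ZT10 or either library of ZT22 and among cells of at most 15000 UMIs. The swing was 1.24 to 1.53 over the single libraries left out, and its call was also lost without the ZT14 library of 7 March.

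GluClalpha in AstA cells, the lateral posterior neurons that express allatostatin A, had a swing of 1.01 with a peak at ZT3.1 (edgeR adjusted p = 0.0084). It was at 6.57 TP10K at ZT02, 6.61 and 5.10 TP10K at ZT06, 4.29 TP10K at ZT10, 3.42 and 2.66 TP10K at ZT14, 4.45 TP10K at ZT18, and 5.12 and 3.998 TP10K at ZT22. Both ZT14 libraries were the lowest. The call was lost among cells of at most 15000 UMIs (edgeR adjusted p = 0.076).

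With collection date as a block, 3 further rhythms were called: GluRIB in AstA cells (swing 0.66, edgeR adjusted p = 0.041) and, in CCHa1 cells, Nmdar2 (1.17, edgeR adjusted p = 0.0059) and mGluR (1.51, edgeR adjusted p = 0.035). Without the block these had edgeR adjusted p-values of 0.12, 0.087 and 0.30. In CNMa cells the rhythm of mGluR differed from the other groups by 4.83 (edgeR adjusted p = 0.027) and that of KaiR1D by 2.09 (edgeR adjusted p = 0.039). Without the ZT02 library of 7 March, which held the 12 cells high in mGluR, the value for mGluR was 6.72 with another peak time (edgeR adjusted p = 0.080), and KaiR1D was not called either (1.65, edgeR adjusted p = 0.21). Among cells of at most 15000 UMIs neither was called, and mGluR was also lost without the ZT14 library of 9 December or that of ZT18, and KaiR1D without that of ZT18 or either of ZT22, without the 5% highest doublet scores, with doubled marker minima and with clock cells chosen by Clk and cwo.

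The 3 bulk drivers each label a few DN3 neurons, SS00367 the APDN3 neurons. Deposited values were whole multiples of 1 step per library, and the multiples are called recovered counts here. Each driver was set against the mean of the other 2 with limma on log2(value + 1), so that fold changes understate those of low genes. With 2 libraries per driver the 8 genes gave 4 calls: 1 in R77H08 (2.38% of all 8334 genes), 2 in SS00367 (2.52%) and 1 in VT055068 (8.77%). In bulk RNA, fewer cells of a type and less RNA per cell cannot be told apart.

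GluRIA was at 114.9 and 145.4 (replicates A and B) in R77H08 neurons, against 15.5 and 40.3 in SS00367 and 60.2 and 48.1 in VT055068 neurons. It was higher in R77H08 by 1.78 (log2, SE 0.34, limma adjusted p = 0.012) and lower in SS00367 by 1.69 on the log2 scale (-1.69, limma adjusted p = 0.017). The drivers did not overlap for GluRIA. GluRIB had 40.9 and 58.6 in R77H08, against 18.8 and 23.6 in SS00367 and 29.7 and 24.04 in VT055068 neurons, and its difference in R77H08 did not pass (1.01, limma adjusted p = 0.13).

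mGluR was at 4.08 and 5.90 in SS00367 neurons, against 21.4 and 40.6 in R77H08 and 26.0 and 26.4 in VT055068 neurons, and fell by 2.28 (log2, SE 0.41, limma adjusted p = 0.010). These 2 values correspond to recovered counts of 5 and 6. Nmdar2 was at 23.1 and 18.03 in VT055068, against 39.0 and 38.3 in R77H08 and 55.5 and 43.2 in SS00367 neurons (-1.06, limma adjusted p = 0.035). Both genes separated the named driver from the others in all libraries.

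Glial genes also differed between the drivers. The 5 genes of the glial list found in the bulk table summed to 94.4 and 107 in VT055068, against 21.4 and 47.3 in R77H08 and 11.4 and 14.7 in SS00367 neurons. The glial regulator repo had recovered counts of 70 and 54 in VT055068, against 0 and 0 in R77H08 and 0 and 1 in SS00367 neurons (5.64, limma adjusted p = 5.9e-05), and moody was also higher in VT055068 (2.98, limma adjusted p = 0.018). The part of these in the 4 calls was not tested.

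mtt did not separate the drivers, at 9.74 and 46.2 in R77H08, 21.2 and 13.8 in SS00367 and 22.3 and 15.6 in VT055068 neurons. Replicates A and B of R77H08 spanned all the other values. GluClalpha, at 29.2 and 114 in R77H08, and KaiR1D, at 27.3 and 82.3 in the same driver, also differed more between replicates than between drivers. Nmdar1 ranged from 48.3 to 80.0 over the 6 libraries.

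Recovered counts of the 8 genes were 5 to 129 per library, and library totals 164631 to 505579. edgeR on the recovered counts called the 4 results too, but none of the 4 was kept in every alternative. All 4 were lost at a pseudocount of 0.1. GluRIA in SS00367 was lost without SS00367 A (-1.03) or VT055068 A, mGluR in SS00367 without either of its replicates, and Nmdar2 in VT055068 without either replicate of VT055068 or of SS00367 (limma adjusted p up to 0.25).

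**Figure D5:**
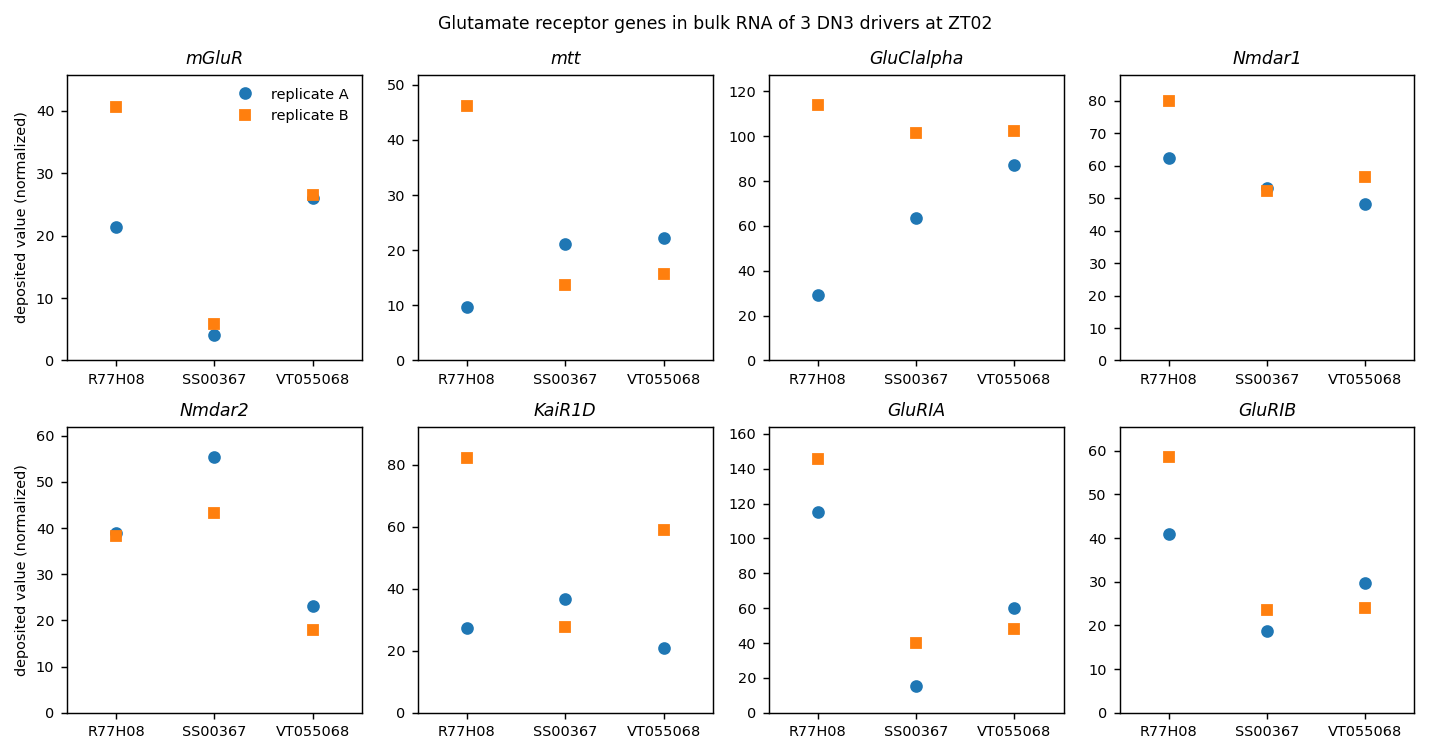
Deposited normalized value of each of the 8 genes in bulk RNA of 3 DN3 drivers at ZT02. Points are the replicates A and B. GluRIA was highest in both R77H08 libraries (114.9 and 145.4) and mGluR lowest in both SS00367 libraries (4.08 and 5.90), whereas the replicates of R77H08 lay far apart for mtt (9.74 and 46.2).

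Other genes of glutamate signalling were taken from 3 lists with 34 genes in the tables. In the list of 10 other ionotropic receptor genes, which includes the larval muscle subunits, 7 were tested in clock against comparison cells and 1 was called, against 14% of all genes. The kainate-type gene Grik averaged 0.180 ± 0.0381 TP10K in clock cells and 0.0589 ± 0.0206 TP10K in comparison cells, a difference of 1.70 (edgeR adjusted p = 1.2e-06). Among marker groups Grik was highest in CrzR with ct cells (2.13, edgeR adjusted p = 2.8e-09) and lower in Pdf cells (-2.64, edgeR adjusted p = 9.7e-06). Neto, an auxiliary subunit, was also higher in CrzR with ct cells (1.62, edgeR adjusted p = 7.5e-07) and lower in CNMa cells (-1.99, edgeR adjusted p = 0.00022), and Ekar was higher in CNMa cells (2.58, edgeR adjusted p = 4.8e-08) at a level of 0.225 ± 0.201 TP10K.

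In the list of 8 genes for the supply and clearance of glutamate, 5 were called between clock and comparison cells, 1 higher and 4 lower, against 14% of all genes. The vesicular transporter VGlut, which loads glutamate into vesicles, averaged 13.0 ± 1.96 TP10K in clock cells and 7.66 ± 1.80 TP10K in comparison cells (0.80, edgeR adjusted p = 0.00015). VGlut was highest in CNMa (31.6 ± 8.96 TP10K) and CCHa1 cells (30.04 ± 4.34 TP10K) and close to 0 in Pdf cells (0.0974 ± 0.104 TP10K, log2 difference -7.01, edgeR adjusted p = 2.1e-22). Pdf cells were thus low in VGlut, GluRIA and GluRIB alike.

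The uptake transporter Eaat1, a gene typical of glia, averaged 51.2 ± 27.3 TP10K in CG34351 cells and at most 0.446 TP10K in each of the other groups (9.73, SE 0.20, edgeR adjusted p = 2.4e-42). Comparison cells had 23.8 ± 11.7 TP10K. The summed level of 6 other glial genes was 0.326 ± 0.252 TP10K in the same CG34351 cells, against 1.62 ± 1.15 TP10K in comparison cells. The metabolic genes Got1 (2.26), Gs2 (1.68) and Gs1 (1.18) were also called higher in CG34351 cells than in the other groups. Gs2 had only 73 UMIs there, at a median of 0.0296 TP10K, where clock cells as a whole averaged 1.85 TP10K. In bulk, Eaat1 was higher in R77H08 neurons (5.19, limma adjusted p = 2.9e-05) and lower in SS00367 neurons (-4.86, limma adjusted p = 7.6e-05).

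In the list of 16 scaffold and G protein genes, 3 were called between clock and comparison cells, against 14% of all genes: the potassium channel gene Irk1 was higher (2.23, at 0.115 ± 0.0511 and 0.0243 ± 0.0132 TP10K), and norpA (-0.81) and Ggamma1 (-0.66) were lower. Among 14 tested in the marker groups, 8 were called in Pdf cells, 7 of them lower, against 29% of all genes, and 6 in CG34351 cells, all higher, against 19.4% of all genes. Irk1 (1.93, at 0.438 ± 0.206 TP10K in CG34351 cells) and the G protein gene Galphao (1.26, edgeR adjusted p = 1.4e-20) were among the 6. Irk2 was also among them (2.69), but with only 26 UMIs in CG34351 cells, a median of 0.0255 TP10K and 0.396 TP10K in 1 library, where clock cells as a whole averaged 0.690 TP10K. Rhythms were called for 5 of 13 tested genes of this list in Pdf cells, against 10.9% of all genes, among them norpA, with a swing of 1.87 and a peak at ZT19.5 (edgeR adjusted p = 0.0075). The other called genes peaked at ZT13.7 (Irk1), ZT15.1 (Prosap), ZT20.5 (dlg1) and ZT3.7 (metro). norpA was also called in AstA cells, with a peak at ZT4.9, and in CrzR with ct cells, with a peak at ZT3.3.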

How the data were processed

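Single-cell RNA was measured in 10 libraries and bulk RNA in 6. The authors prepared the cells with the 10X Chromium kit and ran Cell Ranger on dm6, and deposited raw counts of UMIs per gene and cell, from annotated exons only. Whether counting used the strand is not given in the sources used here. For bulk RNA the authors used Smart-seq3 and deposited a normalized signal per gene. STAR is named in their processing notes without a role. Every deposited bulk value was a whole multiple of 1 step per library (100% of values at a tolerance of 0.01), and these multiples were taken as recovered counts. Whether they count reads or UMIs is not given in the sources used here.

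Scrublet, run per library through scanpy 1.11.5, called 16 of 23921 cells (0.0669%) doublets, a share too low for this step to be relied on. The authors' methods exclude Scrublet doublets from their analysis, without saying whether before deposit. Leaving out the 5% highest scores was an alternative. Deposited cells held 1001 to 24985 UMIs, within the range that the Results of the study give, whereas its Methods give a lower maximum of 15000, which 1771 cells exceeded. Clock cells had at least 4 UMIs of Clk, per, tim and cwo. Marker groups needed 200 TP10K of Pdf, 30 of AstA, 20 of CCHa1, 10 of CNMa, 4 of CG34351, 20 of Pvf3 or, with CrzR, 2 UMIs of ct, and 226 cells with several markers were left out. Counts were summed per group and library of 5 or more cells, and genes with 20 or more UMIs were tested with edgeR 4.0.16 (quasi-likelihood, TMM, Benjamini-Hochberg adjustment over all genes tested). Levels used library as a block. Rhythms used cosine and sine terms of 24 h. DESeq2 1.42.0 was an alternative. Bulk values of at least 1 in 2 libraries were tested with limma 3.58.1 on log2(value + 1). Neighbours in an order of group means were called apart when mean minus SD of one exceeded mean plus SD of the next.

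Pairs of libraries of the same collection date, given in the labels, had a median correlation of deviations of 0.309 (5 pairs, 0.160 to 0.633, over 5730 genes), and the other 40 pairs a median of -0.168. Date was therefore tried as a block for rhythms. The models were also run on simulated data with known changes. These data were drawn without effects of library or date, so the run cannot show how the tests behave under such effects. The genes named include the 8, the 2 genes most like each by correlation and some of the called genes of the 3 lists. Other calls in these lists are not given. The 8 genes, the groups and the lists were chosen with earlier results of these data known. Sequences of the genes are not shown.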

Additional observations from a re-analysis of the deposited data

Results flagged for a closer look

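Among the 72 sets of 7 to 10 libraries, 1 library lay far from the others in 9, and chance gives about 1 in 20. mGluR was at 1.21 TP10K in the CCHa1 cells of the ZT06 library of 23 June (other libraries 0.207 to 0.681), at 3.37 TP10K in the CNMa cells of the ZT02 library of 7 March (others 0 to 0.270) and at 0.935 TP10K in the CrzR with ct cells of the same library (others 0 to 0.335). GluRIB was at 3.67 TP10K in those CNMa cells (others 0.635 to 1.48). mtt was at 1.27 TP10K in the clock cells of the ZT02 library of 9 December (others 0.522 to 0.901). The ZT14 library of 9 December was high for KaiR1D (0.382 TP10K, others 0.170 to 0.257) and GluRIA (2.24 TP10K, others 0.963 to 1.64) in comparison cells and for GluRIB in Pvf3 cells (6.13 TP10K, others 3.202 to 4.76). GluRIA was at 0.330 TP10K in the Pdf cells of ZT18 (others 0 to 0.155).

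The 24 h rhythm of a group differed from the mean of the other 6 groups by the test of the interaction in 7 cases, given as the swing of the difference on the log2 scale. These were mtt (5.85) and Nmdar2 (1.26) in Pdf cells, mtt in CCHa1 cells (2.70), KaiR1D (2.09) and mGluR (4.83) in CNMa cells, and GluRIB (2.34) and mtt (2.17) in CrzR with ct cells.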

How the results depend on the processing

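Of 28 level calls among marker groups, 25 were kept in every alternative, as were 3 of 7 rhythm calls, 2 of 7 calls of a rhythm difference between groups, 0 of 2 calls between clock and comparison cells and 0 of 4 bulk calls. Between clock and comparison cells the 8 genes gave 2 calls, 1 in the libraries of ZT10, ZT14 and ZT18, 4 with 8 or more clock gene UMIs, and 1 to 4 with single libraries left out. In ZT10, ZT14 and ZT18 alone, Nmdar1 was at -0.0516, mtt at -0.0899 and GluClalpha at -0.0377. GluClalpha was at -0.00136 with no minimum of UMIs per gene, at -0.0354 with no library block and at -0.0261 to 0.0591 with single libraries left out.

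Rhythm calls among the 8 genes were 7, but 3 with at most 15000 UMIs per cell and 16 with no minimum of UMIs per gene (all genes 2518, 1625 and 4090). Calls over all genes were 103 in clock cells, 343 with the date block and 497 by DESeq2, 0, 0 and 37 in comparison cells, and, with the date block, 37 in CG34351 cells (21 without) and 82 in Pvf3 cells (32 without). mtt rhythms that missed the threshold moved their peak by over 6 h in comparison cells (swing 0.19) and CCHa1 cells (0.33) with at most 15000 UMIs, in Pvf3 cells with 8 or more clock gene UMIs (0.33) or doubled marker minima (1.83), and with single libraries left out in Pvf3 cells (0.25 to 0.84) and CrzR with ct cells (0.48 to 1.95).

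The rhythm difference of clock against comparison cells had 0 calls among the 8 genes and 1 by DESeq2. Over all genes it had 55, 292 by DESeq2, 34 with at most 15000 UMIs, 29 with clock cells chosen by Clk and cwo, and 13 to 75 with single libraries left out. The difference of each group from the others had 7 calls, 4 with at most 15000 UMIs (967 against 1571 over all genes), 18 with no minimum and 4 to 13 with single libraries left out, where mGluR in CNMa cells ran from 4.04 to 15.3 and was 6.72, with its peak moved by over 6 h, without the ZT02 library of 7 March.

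In bulk RNA the 8 genes had 4 calls, 0 at a pseudocount of 0.1 and 1 to 6 with single libraries left out. Over all genes there were 1139, 413 at that pseudocount, 284 without VT055068 A and 1854 without R77H08 B. edgeR on recovered counts called 151 genes in R77H08, 232 in SS00367 and 904 in VT055068. mtt ran from -0.81 to 1.32 in R77H08, from -0.75 to 0.32 in SS00367 and from -0.57 to 0.50 in VT055068. The letters A and B did not pair the libraries (r = 0.0789, 0.0018 and 0.0739 over 8334 genes), and with the replicate block 4 calls stood, with GluRIA at 1.78 in R77H08. The causes of these changes were not tested. Groups of few cells limit the low genes, as a sum of 3 UMIs in 7 Pdf cells was 0.304 TP10K for mtt.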
